A study of Rattus norvegicus with 9 samples.

Results

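The histone genes were followed in rat oligodendrocyte precursor cells (OPCs) that were differentiating in primary culture. Members were the rows whose gene symbol begins with Hist1h to Hist4h, H1f, H2af or H3f. This rule matched 34 of 32623 Ensembl IDs, and where a symbol had several rows the row with the most total reads over all libraries was kept, which left 32 genes. Members were thus chosen by symbol, and the one measured value used, total reads, decided between rows for 2 symbols, Hist1h2an (163 against 56.9 reads) and Hist1h2ail1 (66 against 17.03 reads). Of the 32 genes, 20 carry a Hist symbol, the older name for genes of the histone clusters, and 12 carry an H1f, H2af or H3f symbol. Symbols do not sort the genes by place, as H1f2 lies on chromosome 17 with many Hist genes.

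Cultures of wild-type brain OPCs were kept for 5 days in a differentiation medium with B27 that was renewed every 2 days, and were basal or received bavisant, a histamine H3 receptor antagonist, at 1 µM or 10 µM (a protocol text writes 1 mM for the lower dose). Each of the 3 groups held 3 libraries, and every group had a library numbered P11, one numbered P13 and one numbered P14. What P stands for is not explained, and no label calls the libraries separate animals or cultures. The spread behind every p-value here may therefore be technical. Libraries were made with a stranded mRNA kit and held 23919400 to 43059900 estimated reads each. All 8 OPC markers and all 8 oligodendrocyte markers on the lists used were detected, and the oligodendrocyte markers summed to more TPM (a level scaled by gene length and library size) than the markers of any other cell type listed. Markers of astrocytes, microglia, neurons, mural and endothelial cells were also detected.

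Histones package DNA. The core histones H2A, H2B, H3 and H4 form the nucleosome, and the linker histone H1 binds where DNA enters and leaves it. Most core histone mRNA is made in S phase from clustered genes and ends in a stem-loop in place of a poly(A) tail, so that a library selected for poly(A) captures it poorly. Replication-independent histones such as H3.3, encoded by H3f3a and H3f3b, are made throughout the cell cycle from polyadenylated mRNA and replace older histones in cells that have stopped dividing. Some clustered genes also make polyadenylated mRNA in differentiating cells. The levels below are therefore those of the mRNA that this kit captures.

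Promoters were read from RefSeq (build GRCr8) as windows of 250 bases before to 50 bases after each gene's start. Of the 32 genes, 29 matched a single RefSeq entry and 27 had a promoter, 17 of them on chromosome 17, 3 on chromosome 2 and 7 elsewhere. Shown here are the promoters of Hist1h2bq and H1f10, called at 10 µM against basal by edgeR with the P number as a block. Hist2h2aa3 was also called but matched more than 1 RefSeq entry, so no promoter was read for it. For contrast the promoters of H1f2 and H3f3b are shown too, abundant genes not called in that fit, although DESeq2 with the block called H1f2. Each is written 5′ to 3′ on the strand of its gene, at chr17:41869292-41869591 (minus) for Hist1h2bq, chr4:121998848-121999147 (minus) for H1f10, chr17:41820404-41820703 (minus) for H1f2 and chr10:101757587-101757886 (minus) for H3f3b. Capitals mark matches on either strand to 4 motifs. CCAAT is the box that factor NF-Y binds. The pattern TATANA, with N for any base, stands for a TATA element. ATTTGCAT is the octamer of histone promoters. AAACACA is the H1 box of linker histone genes. None of the 4 contains another.
Hist1h2bq: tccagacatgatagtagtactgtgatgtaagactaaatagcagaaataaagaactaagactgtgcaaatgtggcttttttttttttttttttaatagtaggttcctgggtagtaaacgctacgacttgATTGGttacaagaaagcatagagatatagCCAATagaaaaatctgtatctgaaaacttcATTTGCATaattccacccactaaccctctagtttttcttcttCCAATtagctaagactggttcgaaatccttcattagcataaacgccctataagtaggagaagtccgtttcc
H1f10: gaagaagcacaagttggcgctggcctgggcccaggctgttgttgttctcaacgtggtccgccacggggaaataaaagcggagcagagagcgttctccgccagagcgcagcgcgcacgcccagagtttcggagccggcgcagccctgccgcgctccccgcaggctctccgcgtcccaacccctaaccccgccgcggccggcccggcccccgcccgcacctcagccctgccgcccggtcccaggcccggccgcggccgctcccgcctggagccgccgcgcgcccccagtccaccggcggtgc
H1f2: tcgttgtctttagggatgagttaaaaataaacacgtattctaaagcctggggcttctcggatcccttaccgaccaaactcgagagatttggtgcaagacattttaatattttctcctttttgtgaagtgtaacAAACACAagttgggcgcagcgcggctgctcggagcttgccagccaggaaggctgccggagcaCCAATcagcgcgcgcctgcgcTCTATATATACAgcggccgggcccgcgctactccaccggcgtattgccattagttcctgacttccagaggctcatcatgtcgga
H3f3b: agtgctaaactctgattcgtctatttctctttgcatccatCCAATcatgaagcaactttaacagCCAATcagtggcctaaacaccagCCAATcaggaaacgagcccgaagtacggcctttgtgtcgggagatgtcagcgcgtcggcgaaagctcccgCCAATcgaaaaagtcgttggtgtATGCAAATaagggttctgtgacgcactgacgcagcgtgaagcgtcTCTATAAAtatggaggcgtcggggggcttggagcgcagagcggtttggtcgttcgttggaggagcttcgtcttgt
CCAAT was found in 22 of 27 member promoters (81.5%), against 37.5% of all 33469 promoters in the table. TATANA was found in 18 of 27 (66.7%), against 26.5% of all. The octamer, an element that the Oct-1 protein binds in H2B promoters, was in 7 of 27 (25.9%), against 1.78% of all, and 6 of these 7 carry Hist symbols. The H1 box stood in 5 of 8 H1f promoters (62.5%), against 6.99% of all promoters, in 1 of 2 H3f promoters (H3f3a), and in 0 of 16 promoters of Hist genes. The H1f10 window held none of the 4 motifs, which says only that these letters are not in this stretch.

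Levels differed widely among the members, and few of the 32 genes held most of their summed TPM. The 10 genes with the highest mean TPM held 97.8% to 98.3% of the sum over the 32 in every library. Histone genes listed under other symbols, 742 to 1033 TPM per library, are not in this sum. The 3 H3f genes held 59.5% of the sum over the 32 on average, the H1f genes 17.7%, the Hist H2B genes 14.4% and the Hist H2A genes 6.33%. Hist H4 genes held 1.33% and Hist H3 genes 0.826%, so the 20 Hist genes together made up 22.9%.

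The H3.3 genes were the most abundant. H3f3a (ENSRNOG00000006532) had 896, 982 and 989 TPM in the basal libraries P11, P13 and P14, 889, 1008 and 995 TPM at 1 µM, and 934, 1032 and 959 TPM at 10 µM, in that order of P numbers, which is kept below. H3f3b (ENSRNOG00000003220) had 789, 927 and 866 TPM in basal libraries, 784, 919 and 947 TPM at 1 µM, and 798, 1097 and 955 TPM at 10 µM. In every group the P11 library was the lowest for both genes, and the groups overlapped. TPM depends on the annotated length, and these similar levels rested on 241932 reads in all for H3f3a and 42508 reads for H3f3b. H3f3c (ENSRNOG00000032401) followed a similar order, with 408, 516 and 523 TPM in basal libraries, 410.3, 530.1 and 556 TPM at 1 µM, and 414, 568 and 546 TPM at 10 µM. Its 3 P11 values were the 3 lowest of the 9.

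Among linker histones, H1f2 (ENSRNOG00000054978), which encodes the somatic H1.2, had 621, 487 and 563 TPM in basal libraries, 665, 517 and 576 TPM at 1 µM, and 648, 566 and 589.6 TPM at 10 µM. Here P11 was the highest library in each group, the reverse of the H3f genes. H1f10 (ENSRNOG00000027722), a replication-independent H1, had 101, 101 and 94.9 TPM in basal libraries, 107, 124 and 116 TPM at 1 µM, and 114, 143 and 113 TPM at 10 µM. Every treated library of either dose was above the 3 basal libraries. The H1 genes H1f4, H1f5 and the testis form H1f6 were near the limit of the test, with mean levels of 1.20, 1.54 and 1.39 TPM and 4 to 30 reads per library.

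Of the genes with a Hist symbol, Hist1h2bq (ENSRNOG00000021198), an H2B gene, was the highest, with 274, 317 and 361 TPM in basal libraries, 303, 319 and 341 TPM at 1 µM, and 336, 375 and 396 TPM at 10 µM. The 10 µM library was the highest of its P number in all 3. Hist3h2ba (ENSRNOG00000043419), another H2B gene, had 172, 231 and 242 TPM in basal libraries, 191, 243 and 219 TPM at 1 µM, and 181, 237 and 197 TPM at 10 µM, with no order by dose. The H4 gene Hist2h4a (ENSRNOG00000045840) had 54.4, 40.4 and 37.3 TPM in basal libraries, 51.1, 46.1 and 40.7 TPM at 1 µM, and 57.4, 62.9 and 38.1 TPM at 10 µM, with all groups overlapping. The H2A genes Hist2h2aa2 and Hist2h2aa3 both had fractional counts and are described together below.

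**Figure D1:**
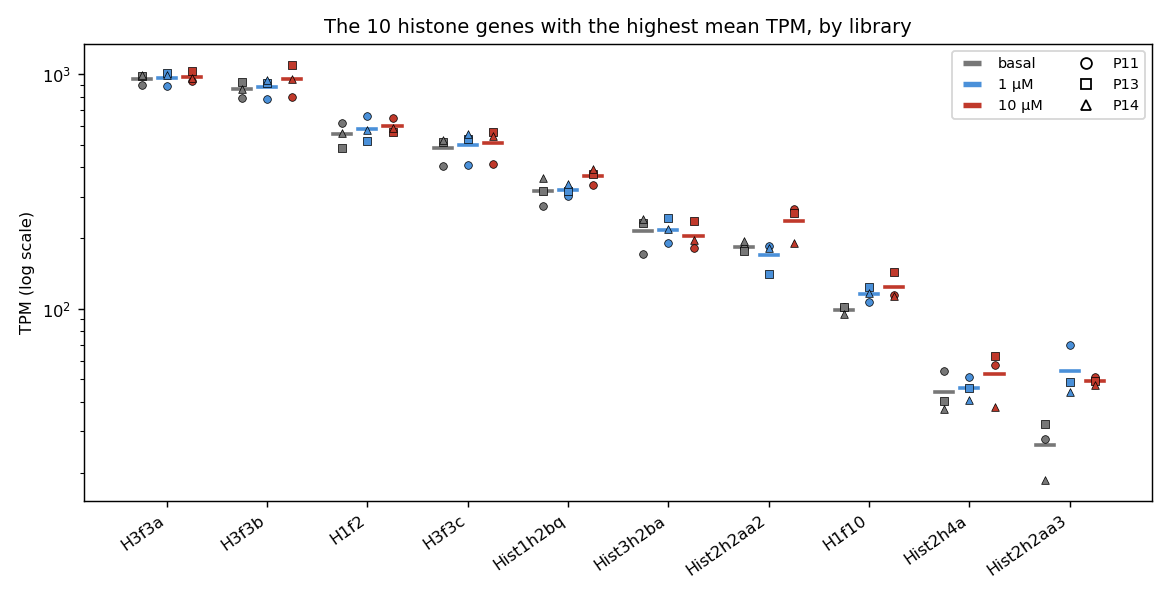
TPM (log axis) of the 10 histone genes with the highest mean, in each of the 9 libraries; colour marks the dose, symbol shape the P number and bars the group mean of 3 libraries. H3f3a and H3f3b are highest, with means of 965 and 898 TPM, and the 3 basal libraries of H1f10 and of Hist2h2aa3 lie below all treated libraries of the same gene.

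At the other end of the range, 22 of the 32 genes passed the filter on low counts and 10 did not. No read was assigned to H1f7, H1f8 or H2afb3 in any library, which allows up to 0.00935 CPM (reads scaled to library size) for each over all 9 libraries, for counting error only. The other 7 untested genes (Hist1h2bl, Hist1h2ail1, Hist1h2ak, H1f1, Hist2h4, Hist1h2ao and Hist1h4b) had 1.5 to 77.6 reads in all. The least covered tested gene, Hist1h2ah, had 82 reads, just above the best covered untested one, Hist1h2bl. Histone genes are close copies of each other, and 16 of the 32 had fractional estimated counts in at least 1 library, 7 of them in all 9 (H3f3b, H3f3c, Hist3h2ba, Hist2h2aa2, Hist2h2aa3, Hist2h3c2 and Hist1h2bo). Hist1h2bq had them in 8 libraries. Values of single copies among these 16 genes are uncertain, since the authors' counting could divide reads between copies.

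Summed over all 32 genes, histone TPM was 3585, 3878 and 3970 in basal libraries (P11, P13, P14), 3718, 3972 and 4106 at 1 µM, and 3886, 4468 and 4102 at 10 µM. Within each P number the 10 µM library was above the basal one, by a ratio of 1.08, 1.15 and 1.03. The 20 Hist genes summed to 767, 862 and 929.8 TPM in basal libraries, 857, 869.6 and 912 TPM at 1 µM, and 973, 1058 and 935 TPM at 10 µM, ratios of 10 µM to basal of 1.27, 1.23 and 1.01. The Hist sum was thus higher at 10 µM in P11 and P13 and nearly level in P14. By class, the H2A sum averaged 298 ± 38.9 TPM at 10 µM and 220.4 ± 4.75 TPM in basal libraries (SD, n = 3 each), the H2B sum 596 ± 54.5 and 555 ± 86.8 TPM, and the H1f sum 729.6 ± 32.5 and 660.1 ± 67.0 TPM. The H3f sum averaged 2434 ± 276 TPM at 10 µM and 2298 ± 180.1 TPM in basal libraries. Among the classes, the H2A sums at 10 µM (253 to 323 TPM) lay wholly above the basal ones (218 to 226 TPM). The sum over all Hist genes did so too, while the H1f, H3f, H2B, H3 and H4 sums overlapped. Most of the H2A sum came from Hist2h2aa2 and Hist2h2aa3, which together averaged 287 TPM at 10 µM and 210 TPM in basal libraries. The results of this pair below are thus not separate from the H2A sum. In bulk RNA, fewer cells of a type and less RNA per cell cannot be told apart, so these sums do not say which cells held the mRNA.

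Cultures with 10 µM bavisant were set against basal ones to see how the higher dose moved histone mRNA. In the edgeR quasi-likelihood test with the P number as a block, Hist1h2bq, Hist2h2aa3 and H1f10 rose, and 0 histone genes fell. These 3 of 22 tested members (13.6%) stand beside 3.96% of all 15321 genes called, 1.32% higher and 2.64% lower. Without the block 0 of 22 members and 0 of 15321 genes passed (0% called, lowest adjusted p = 0.462), while 4 members and 808 genes had an unadjusted p under 0.05. DESeq2 called 0 members and 64 genes without the block, and 4 members and 947 genes with it, the fourth being H1f2 (adjusted p = 0.0312).

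Hist1h2bq averaged 369 ± 30.5 TPM at 10 µM and 317 ± 43.4 TPM in basal libraries (SD, n = 3 each), a log2 fold change of 0.31 ± 0.05 (SE) with edgeR's adjusted p = 0.0233 with the block and 0.892 without it. Its log2 differences within P11, P13 and P14 were 0.34, 0.38 and 0.22, all positive, although the TPM ranges of the groups overlapped. H1f10 averaged 124 ± 16.9 TPM at 10 µM and 99.1 ± 3.66 TPM in basal libraries, a log2 fold change of 0.48 ± 0.10 with adjusted p = 0.0400 in edgeR with the block and 0.792 without it. This linker histone was higher at 10 µM in all 3 P numbers, by 0.35, 0.73 and 0.34 on the log2 scale. Hist2h2aa3, an H2A gene, averaged 49.2 ± 1.94 TPM at 10 µM and 26.2 ± 6.90 TPM in basal libraries, a log2 fold change of 0.96 ± 0.18 with adjusted p = 0.0293 in edgeR with the block and 0.793 without it.

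Each of these calls was lost without some single libraries. When each library in turn was left out of the blocked edgeR fit, Hist1h2bq stayed called in 4 of 9 runs (adjusted p 0.0297 to 0.124), Hist2h2aa3 in 3 of 9 (0.0312 to 0.116) and H1f10 in 1 of 9 (0.0482 to 0.189). Leaving out basal P11, P13 or P14, or 10 µM P13 or P14, ended all 3 calls, and the number of genes called in the whole table fell to 0, 1, 57, 158 and 64 in those runs. The calls of Hist2h2aa3 and H1f10 also ended without 1 µM P14 (adjusted p = 0.0549 and 0.0567), and that of H1f10 without 1 µM P11 (0.0742) or 10 µM P11 (0.0595). The 3 fold changes stayed positive in every run, between 0.27 and 1.16. By limma on log2(TPM + 1) and log2(TPM + 0.1) with the block, Hist2h2aa3 was the 1 histone gene called. Hist1h2bq and H1f10 did not pass there.

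Most other members also had positive fold changes that did not pass. Of the 22 tested, 19 were above 0 with the block and 17 without it, beside 47.2% and 47.8% of all genes. The median was 0.26 with the block, against -0.01 over all genes. The 12 genes with a mean of at least 10 TPM were all above 0 (0.04 to 0.96), while among the 10 less abundant tested genes 7 were above 0 (-0.41 to 0.74) with SEs of 0.21 to 0.49. Within P numbers, 19 members were above 0 in P11, 19 in P13 and 13 in P14, with medians of 0.24, 0.49 and 0.09, so P14 showed the smallest shift. Over all genes 48.9%, 46.0% and 50.5% were above 0, in that order. On log2 CPM of rounded counts with TMM scaling, 11 of 22 members were higher in all 3 P numbers, beside 20.5% of all genes, and 1, Hist2h2be, was lower in all 3, beside 24.3%. On that scale the groups did not overlap for 3 members, all higher at 10 µM (Hist2h2aa3, H1f10 and Hist1h4m), beside 4.72% of all genes, and 0 members lay wholly lower, beside 4.61%. In TPM the groups of Hist1h4m did overlap, with 4.41 TPM at 10 µM in P11 against 4.64 TPM in the basal P11 library. Scaling by library totals left 16 members above 0 with a median of 0.21, and 131 of the 834 genes then called were higher (84.3% lower, against 66.7% with TMM scaling).

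**Figure D2:**
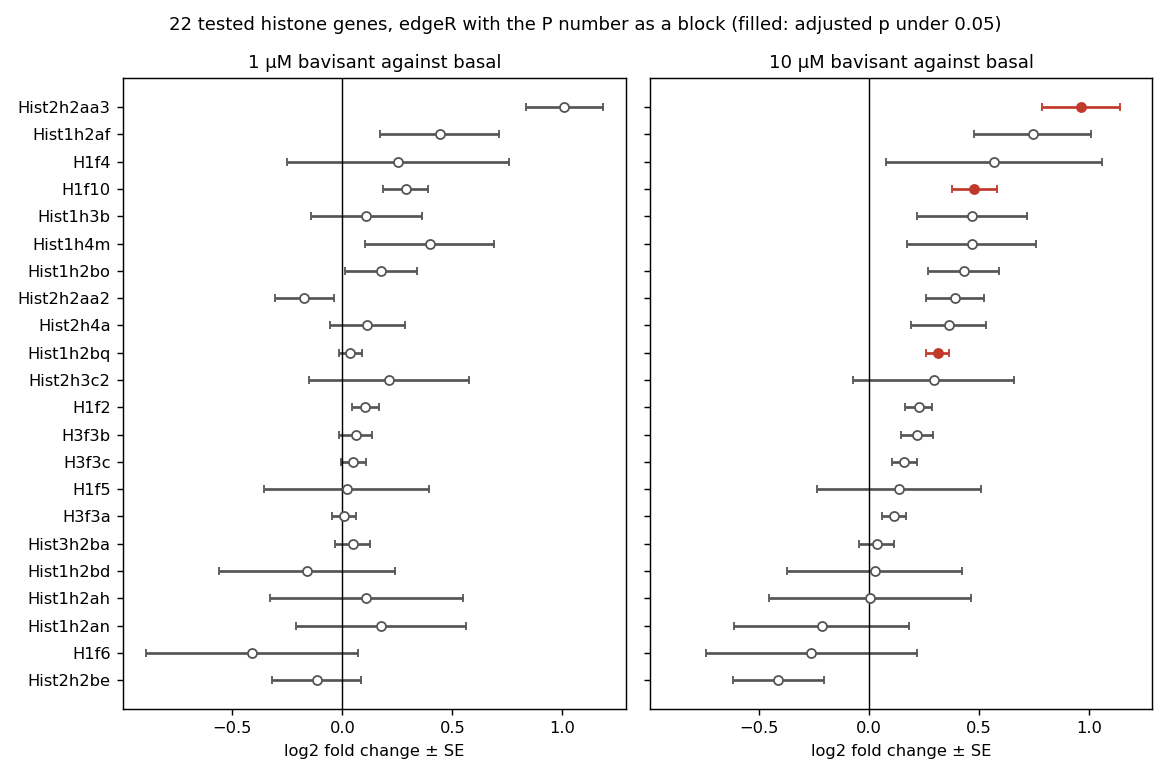
Log2 fold changes ± SE of the 22 tested histone genes at 1 µM (left) and 10 µM (right) against basal, in edgeR with the P number as a block; filled red points have an adjusted p under 0.05. The 3 filled points are Hist2h2aa3, H1f10 and Hist1h2bq at 10 µM, and 19 of 22 points lie right of 0 in that panel.

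The H3f genes had small fold changes at 10 µM. H3f3b (0.22 ± 0.07, adjusted p = 0.138), H3f3c (0.16 ± 0.06, 0.149) and H3f3a (0.12 ± 0.05, 0.251) did not pass in edgeR with the block. Among linker histones, H1f2 (0.23 ± 0.06, adjusted p = 0.0783) missed the threshold in edgeR, and the scarce H1f4 (0.57 ± 0.49), H1f5 (0.14 ± 0.37) and H1f6 (-0.26 ± 0.48) had SEs too wide to give a direction. Of the other named Hist genes, Hist2h2aa2 (0.39 ± 0.13, adjusted p = 0.138), Hist1h2af (0.74 ± 0.27, adjusted p = 0.148), Hist1h2bo (0.43 ± 0.16, 0.168), Hist2h4a (0.36 ± 0.17, 0.251) and Hist3h2ba (0.04 ± 0.08, 0.821) were above 0 without passing. Hist3h2ba turned to -0.01 under scaling by library totals. Hist2h2be, an H2B gene, had the lowest value (-0.41 ± 0.21, adjusted p = 0.279), with 4.48, 5.17 and 7.08 TPM at 10 µM against 5.45, 8.07 and 10.5 TPM in basal libraries. The remaining 6 tested Hist genes ranged from -0.22 to 0.47 and none passed. When each library was left out in turn, with or without the block, H3f3b lay between 0.081 and 0.332, H3f3c between 0.0667 and 0.32, and H3f3a between 0.0627 and 0.171. The same runs gave 0.121 to 0.333 for H1f2, 0.145 to 0.578 for Hist2h4a and 0.242 to 0.577 for Hist2h2aa2.

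Hist2h2aa3 is given here with the H2A gene Hist2h2aa2 (ENSRNOG00000052555), which has a closely related symbol. The position of Hist2h2aa3 was not read here. Their symbols name them as relatives, both had fractional counts in all 9 libraries, and the authors' counting could split reads between them, but the identity of their sequences was not computed here. Hist2h2aa3 (ENSRNOG00000047898) had 27.9, 32.1 and 18.6 TPM in basal libraries, 69.9, 48.8 and 44.2 TPM at 1 µM, and 51.2, 49.2 and 47.3 TPM at 10 µM. All 6 treated libraries were above the basal ones, and the doses overlapped. Hist2h2aa2 had 182, 176 and 194 TPM in basal libraries, 185, 140.1 and 182 TPM at 1 µM, and 265, 256 and 191 TPM at 10 µM. It was higher at 10 µM in P11 and P13 and not in P14. The share of the pair's TPM given to Hist2h2aa3 was 13.3%, 15.4% and 8.75% in basal libraries, 27.4%, 25.8% and 19.6% at 1 µM, and 16.2%, 16.1% and 19.9% at 10 µM. This share was highest at 1 µM in P11 and P13, whereas the P14 shares of the doses were close.

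Summed, the pair had 209.7, 208 and 213 TPM in basal libraries, 255, 189 and 226 TPM at 1 µM, and 316, 305 and 238 TPM at 10 µM. The 3 sums at 10 µM were above all basal sums, and those at 1 µM lay on both sides of them. The pair's log2 fold change was 0.47 ± 0.11 at 10 µM against basal (edgeR with the block, adjusted p = 0.0555; without it 0.850) and 0.03 ± 0.11 at 1 µM. The call of Hist2h2aa3 thus did not carry over to the sum, which was fitted after the values had been seen, and 2 of 21 members were then called.

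**Figure D3:**
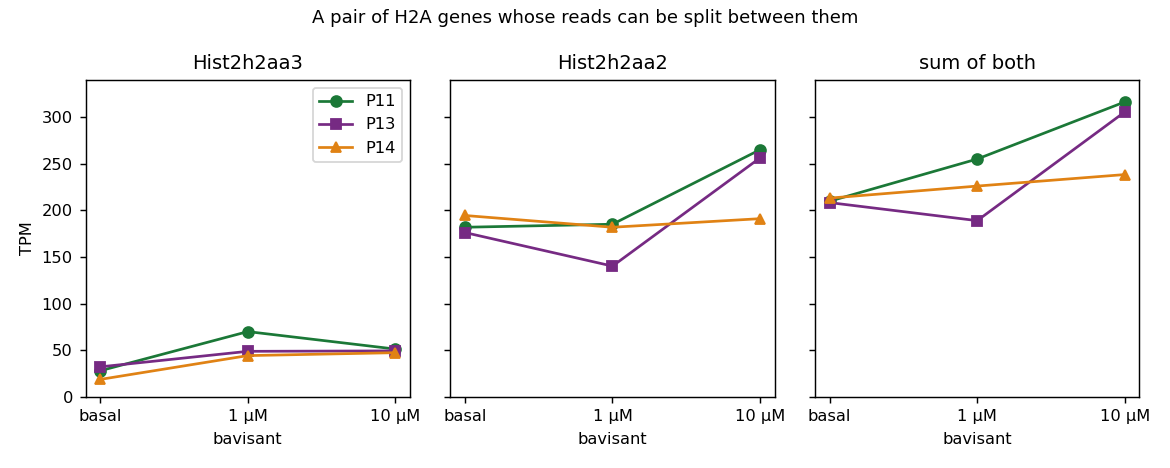
TPM of Hist2h2aa3, of Hist2h2aa2, an H2A gene with a related symbol, and of their sum at each dose of bavisant, with 1 line per P number. Hist2h2aa3 is higher at 1 µM than in the basal library of each P number, and the sum at 10 µM (238 to 316 TPM) lies above the basal sums (208 to 213 TPM).

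The comparison of 1 µM with basal cultures asks what the lower dose did, and it shares the basal libraries with the comparison above. In edgeR 0 of 22 members and 0 of 15321 genes passed with or without the block (0% called). With the block 2 members and 582 genes had an unadjusted p under 0.05, and the lowest adjusted p was 0.563. DESeq2 with the block called 8 genes, 1 of them Hist2h2aa3, and without it 5 genes and 0 members. Hist2h2aa3 had the highest value of the members (1.01 ± 0.18, edgeR with the block, adjusted p = 0.858), beside -0.17 ± 0.14 for Hist2h2aa2. H1f10 had 0.29 ± 0.10 and Hist1h2bq 0.04 ± 0.05. Of the 22 members 18 were above 0, beside 48.5% of all genes, with a median of 0.11 in the members and -0.00 over all genes. Groups did not overlap on TMM-scaled log2 CPM for 2 members, both higher (Hist2h2aa3 and H1f10), beside 1.48% of all genes, and 0 lower, beside 1.44%. On that scale 6 members were higher in all 3 P numbers, beside 13.7%, and 2, Hist2h2aa2 and H1f6, were lower in all 3, beside 14.4%.

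Between the doses, which share libraries with both comparisons above, Hist1h2bq was the 1 member called, higher at 10 µM (log2 fold change 0.28 ± 0.05, edgeR with the block, adjusted p = 0.0298). This 1 of 22 (4.55%) stands beside 4.30% of all genes called and 1.31% called higher, and is near the background. Hist1h2bq was higher at 10 µM than at 1 µM in all 3 P numbers, by 0.20, 0.37 and 0.27 on the log2 scale. It stayed called in 4 of 9 runs that left out 1 library (adjusted p 0.0445 to 0.131), and the call ended without any 1 µM library or without 10 µM P13 or P14. Hist2h2aa2 was next (0.56 ± 0.13, adjusted p = 0.0546), and Hist2h2aa3 was level (-0.04 ± 0.17). Without the block edgeR called 0 genes and 0 members (0% called), with 717 genes and 2 members at an unadjusted p under 0.05, and DESeq2 called 66 genes and 0 members. With the block 17 of the 22 members were above 0 in edgeR (median 0.14), beside 48.8% of all genes (median -0.0045). On TMM-scaled log2 CPM groups did not overlap for 2, Hist2h2aa2 and Hist1h2bq, both higher, beside 4.14% of all genes, with 0 members wholly lower, beside 4.36%. On that scale 9 members were higher in all 3 P numbers, beside 20.5% of all genes, and 2 were lower in all 3, beside 21.9%. In TPM the groups of Hist1h2bq did overlap (336 to 396 TPM at 10 µM, 303 to 341 TPM at 1 µM).

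Histone mRNA also differed by P number. With the dose group in the edgeR model, P11 differed from the mean of P13 and P14 in 8 of 22 members (36.4%), 1 higher and 7 lower, beside 50.6% of all genes called, 25.2% higher and 25.4% lower. The share of members called in either direction was below that of all genes, while 31.8% of members were called lower. P11 is 1 P number with 1 library per dose. The p-values of this contrast therefore rest on the spread among libraries, and do not measure how P numbers vary. The H3f genes were all lower in P11, H3f3c by -0.44 ± 0.05 (adjusted p = 1.97e-04), H3f3b by -0.20 ± 0.07 (0.0317) and H3f3a by -0.17 ± 0.05 (0.0150). H1f2 was higher in P11 (0.30 ± 0.05, adjusted p = 0.00186), while H1f10 did not pass (-0.04 ± 0.09, 0.704). The H2B genes Hist1h2bq (-0.19 ± 0.05, adjusted p = 0.00832), Hist3h2ba (-0.26 ± 0.07, 0.0141) and Hist1h2bo (-0.40 ± 0.14, 0.0438) and the H2A gene Hist1h2af (-0.71 ± 0.24, 0.0350) were lower in P11. The number of members called ranged between 4 and 9 when each library was left out, with 4 without 1 µM P11 and 5 without basal P11.

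**Figure D4:**
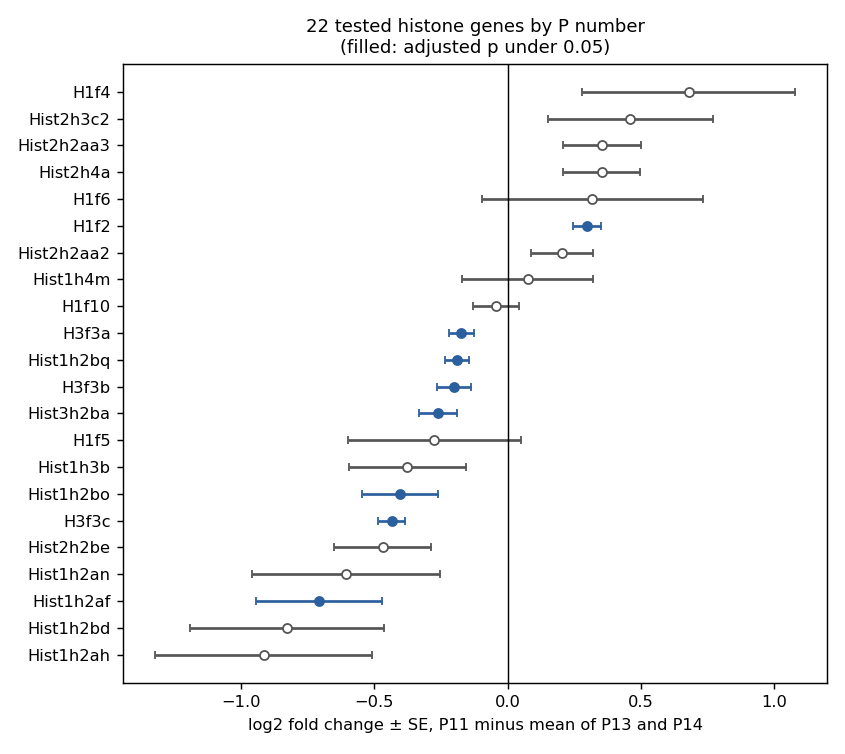
Log2 fold changes ± SE of the 22 tested histone genes in P11 libraries over the mean of P13 and P14 libraries, from edgeR with the dose group in the model; filled blue points have an adjusted p under 0.05. Filled points left of 0 include the 3 H3f genes, and H1f2 is the 1 filled point right of 0.

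Genes of mitosis were also lower in P11. All 21 tested genes of a G2 and mitosis list were lower in P11 in edgeR (median -1.03), among them Cdc20 (-1.11 ± 0.11, adjusted p = 7.74e-05) and Birc5 (-1.32 ± 0.15, 1.46e-04), and their summed level was 241 to 309 TPM in P11, 432 to 607 TPM in P13 and 589.9 to 662 TPM in P14. Of 33 S phase genes 13 were lower and 2 higher in P11, together below the 50.6% of all genes called in either direction. Of the cell type markers, 7 of 8 for oligodendrocytes were higher in P11. So were 4 of 5 tested mural and fibroblast markers and all 4 tested for endothelial cells. Lower were 6 of 10 for microglia and 5 of 7 for neurons, with 1 neuron marker higher. Of 8 OPC markers 3 were higher and 3 lower, and of 8 astrocyte markers 2 were higher and 3 lower. Over all genes 25.2% were higher and 25.4% lower. The part of these markers in the P11 pattern of the histone genes was not tested. At 10 µM against basal, 0 of these 21 mitosis genes passed in the blocked edgeR fit (median 0.15), with sums of 241 to 662 TPM at 10 µM and 309 to 614 TPM in basal libraries. Of the S phase list 1 of 33 rose, Fen1, a flap endonuclease of DNA replication (0.26 ± 0.06, adjusted p = 0.0391), and the list median was -0.01.

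Few of the genes that process, carry or modify histones passed the test at 10 µM. Among 29 tested genes of histone mRNA 3′ end processing, which include the stem-loop binding protein Slbp (-0.09 ± 0.08), 1 fell and 0 rose in edgeR with the block. The gene that fell was Casp8ap2 (-0.33 ± 0.07, adjusted p = 0.0344), whose protein FLASH is needed to cut histone pre-mRNA. Of 35 histone chaperones and deposition factors 0 passed (median 0.02), and of 30 histone acetyltransferases and methyltransferases 0 passed (median -0.05). Of 15 deacetylases 2 rose, Hdac11 (0.35 ± 0.05, adjusted p = 0.0198) and Sirt2 (0.30 ± 0.06, 0.0401), an enzyme abundant in myelinating oligodendrocytes. In the same fit 3.96% of all genes were called, and without the block 0 genes of any of these lists passed.

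A further 17 histone genes are listed under other symbols, a set picked after the file had been seen, and 12 of them were tested. None was called at 10 µM (0 of 12; median 0.23), with H2ax, the DNA damage variant of H2A, at 0.30 ± 0.08 (edgeR with the block, adjusted p = 0.0717), the centromere variant Cenpa at 0.37 ± 0.14 (0.181) and H2az1 at 0.18 ± 0.08 (0.230). In P11 against P13 and P14, 6 of these 12 were lower and 0 higher, beside 25.4% of all genes called lower and 25.2% higher. Cenpa was at -1.71 ± 0.14 there (edgeR, adjusted p = 2.54e-05).

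Cell type markers also differed at 10 µM in the same libraries. At 10 µM 6 of 8 oligodendrocyte markers rose in edgeR with the block, and their summed level was 46057 to 51275 TPM at 10 µM and 34605 to 39245 TPM in basal libraries, with 0 markers at 0. Of the OPC markers 2 of 8 rose, and sums were 3345 to 3544 TPM at 10 µM and 3145 to 3381 TPM in basal libraries. Lower were 2 of 8 astrocyte markers (1374 to 1961 TPM at 10 µM, 1797 to 2279 TPM basal), 2 of 10 microglia markers (823 to 959.9 TPM and 877 to 1221 TPM) and 3 of 7 tested neuron markers (199.96 to 337 TPM and 226 to 469 TPM). Of the mural and fibroblast markers 0 of 5 and of the endothelial markers 0 of 4 passed. In this fit 1.32% of all genes were called higher and 2.64% lower. Without the block 0 markers of any list passed at 10 µM in edgeR, as 0 of all genes did. At 1 µM against basal 0 markers of any list passed, and the oligodendrocyte sums were 33389 to 39852 TPM at 1 µM, overlapping those of the basal libraries. The part of the marker differences in the histone values was not tested.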

How the data were processed

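RNA of 9 rat OPC culture libraries was measured by bulk sequencing. Extraction was by RNeasy and libraries by the Illumina Stranded mRNA Prep, per the labels. The submitters' processing notes name FastQC, Trimmomatic, DRAGEN and Picard with genome build rn6. The counter, strand setting and annotation were not given in the sources used here. Reads of overlapping or antisense genes were not separated further. The deposited estimated counts (expected counts by the authors, 92.4% to 93.0% of values per library being whole within 1e-06) were not scaled between libraries. The deposited TPM values were scaled by the authors for gene length and library.

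Estimated counts were rounded and tested in R 4.3.3 with edgeR 4.0.16 (quasi-likelihood F test, TMM, filterByExpr with count minimum 10 and total minimum 15, Benjamini-Hochberg over all 15321 genes, adjusted p under 0.05), on all 9 libraries with 1 coefficient per group. SE is the log2 fold change over the square root of F. Whether P numbers pair the libraries was checked from deviations from group means: the 9 same-number pairs correlated at 0.319 to 0.772, above the limit of 0.1. The other 18 pairs had -0.708 to 0.193. Deviations cancel within each group, so high same-number values force low ones in these 18, which are no separate check. From the same-number pairs, a blocked fit (additive P number) is printed beside the fit without it. Libraries of 1 group all differed by more than counting noise (chi-square over its degrees of freedom, 24.3 to 119). Log2 CPM used a prior count of 2.

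Alternatives were library totals, DESeq2 size factors, DESeq2 1.42.0, limma 3.58.1 on log2(TPM + 1) and log2(TPM + 0.1), other filters, the groups alone, summed rows of a symbol and each library left out. The sum of Hist2h2aa2 and Hist2h2aa3 was added after seeing the data. Steps were tested on simulated data. Members and lists were chosen with earlier results of these data known. Members were named if called in either fit, among the 10 highest by mean TPM, tested and outside the Hist symbols, or among the 3 next smallest p values at 10 µM. Others are named to account for them. List genes were named when called, at most 4 per list, and Slbp, H2ax, H2az1 and the uncalled Cenpa after their values were seen. No genome was used here.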

Additional observations from a re-analysis of the deposited data

How the results depend on the processing

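The paired analysis decided the dose calls. Without the replicate block edgeR called 0 genes at 10 µM against basal and at 10 µM against 1 µM, and with it 607 genes (3 histone genes) and 659 genes (1). In the blocked fit the counts at 10 µM against basal were 834 genes and 3 histone genes with library totals, 609 and 3 with DESeq2 size factors, 715 and 3 with no count filter, 736 and 3 with a mean of at least 100 reads, 608 and 3 with rows of a symbol summed, 606 and 2 with the H2A pair summed, and 502 and 506 genes, with 1 histone gene each, by limma on log2(TPM + 1) and log2(TPM + 0.1). DESeq2 called 64 genes without the block, and 947 genes and 4 histone genes with it. At 10 µM against 1 µM the same settings gave 926 and 1, 656 and 1, 760 and 2, 726 and 1, 658 and 1, and 658 and 1, limma gave 453 and 433 genes with 0 histone genes, and DESeq2 gave 66 genes without the block, and 987 and 2 with it. At 1 µM against basal DESeq2 called 5 genes without the block, and 8 genes and 1 histone gene with it. Hist3h2ba at 10 µM changed sign with library totals (-0.01 without and with the block, -0.0100 and -0.0112) and by limma (-0.0636 and -0.0638), and the H2A pair summed gave 0.0348 at 1 µM in place of the negative value of Hist2h2aa2. The P11 median of -0.20 was -0.249 with library totals and -0.108 with a mean of at least 100 reads, which leaves 10 histone genes.

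Leaving out each library, with and without the block, gave 0 to 581 genes and 0 to 3 histone genes with a histone median of 0.227 to 0.458 at 10 µM against basal, 0 to 651 and 0 to 1 with a median of 0.0581 to 0.203 at 10 µM against 1 µM, 0 to 2 genes at 1 µM with a histone median of 0.00956 to 0.171, and 4 to 9 histone genes with a median of -0.225 to -0.16 for P11. In these runs, made for 16 named genes at 10 µM against basal and for 4 in the other dose comparisons, the sign changed for H1f5 (-0.228 to 0.581), H1f6 (-0.882 to 0.345) and Hist3h2ba (-0.0998 to 0.144) at 10 µM against basal, Hist1h2bq (-0.0524 to 0.138) at 1 µM, and Hist2h2aa3 (-0.222 to 0.186) between doses. Between the fits without and with the block, Hist1h2ah (-0.02 and 0.00) and Hist1h2bd (-0.04 and 0.03) changed sign. By limma the histone median was 0.139 and 0.138 at 10 µM against basal, and 0.0362 and 0.0359 against 1 µM. The cause of these changes was not tested. A group left with 2 libraries shared the spread of the others. The 10 tested genes under 10 TPM had 82 to 333 reads in all and SEs of 0.21 to 0.49 at 10 µM; whether depth set these SEs was not tested, and Hist2h3c2, with 862 reads, had an SE of 0.37.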
